A study of Mus musculus with 10 samples.

Results

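The genes described here are Il1rn, which encodes the interleukin-1 (IL-1) receptor antagonist, and 9 further genes of the IL-1 system: the agonists Il1a, Il1b and Il18, the receptor genes Il1r1, Il1r2, Il1rap, Il1rl1 and Il18rap, and the processing protease Casp1. They are 10 of the 52550 genes in the deposited count table, taken by symbol through their Ensembl identifiers, and a gene with fewer than 10 counts over the 10 libraries is given as not measured. The genes were chosen by their function and with their read counts after doxycycline (DOX) in the MLL-AF9-i139 clones already known, above all the rise of Il1rn, so their values in that comparison are a description with no test. By this limit 9 of the 10 genes were measured. Il18, with 45 counts in total, and Il1a, with 62, lay closest above it, whereas Il1rl1, the receptor for IL-33, had 7 counts in total and lay below it. Those 7 counts of Il1rl1 were 3 in clone 1 with DOX, 1 in clone 3 with DOX and 3 in the 48 h MLL-AF9-ieGFP culture with DOX.

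The cells were mouse bone marrow cells enriched for hematopoietic stem and progenitor cells (HSPCs), from C57BL/6 donors of 8 to 20 weeks, and they had been transformed by retroviral MLL-AF9, a fusion oncogene of acute myeloid leukemia. All of them also carried a tetR-KRAB repressor and grew with the cytokines SCF, GM-CSF, IL-6 and IL-3. In MLL-AF9-i139 cells a lentiviral vector expresses miR-139 once DOX is added, and in MLL-AF9-ieGFP cells DOX induces eGFP in its place. RNA was sequenced from 3 MLL-AF9-i139 clones, each grown with 5 µg/mL DOX (48 h for clones 1 and 2, 72 h for clone 3) and without DOX (no time is given), and from 1 MLL-AF9-ieGFP clone grown with 5 µg/mL DOX and without it, for 48 h and for 72 h. In MLL-AF9-i139, clone 3 and the 72 h treatment cannot be told apart, and since MLL-AF9-ieGFP was 1 clone, construct and clone cannot be told apart either. The comparison of DOX with no DOX in MLL-AF9-i139 asks what changes once miR-139 is induced, and MLL-AF9-ieGFP shows what DOX and a reporter do without it.

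IL-1α, encoded by Il1a, and IL-1β, encoded by Il1b, signal through the receptor IL-1R1 together with its accessory chain IL-1RAP, and MyD88 and the IRAK kinases then carry the signal to NF-κB. The receptor antagonist binds IL-1R1 without recruiting the accessory chain and so blocks it, while IL-1R2 binds IL-1 but lacks the signalling domain and acts as a decoy. IL-1β and IL-18 are made as precursors that caspase-1, activated in inflammasomes, cleaves. Myeloid cells are known producers of these cytokines and of the antagonist, and IL-1 drives emergency production of myeloid cells from HSPCs.

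The sequences of the induced microRNA (miRNA) are shown because they define the letters that could be searched for in the genes of the IL-1 system. Both mature arms are from RefSeq (GRCm38.p6, chr7:101475382-101475403 and chr7:101475418-101475439, plus strand), with the seed, bases 2 to 8, in capitals.
mmu-miR-139-5p: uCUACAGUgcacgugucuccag
mmu-miR-139-3p: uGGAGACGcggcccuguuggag
The longest annotated 3′ UTR of each gene was searched on the sense strand for ACTGTAG or CTGTAGA (miR-139-5p) and for CGTCTCC or GTCTCCA (miR-139-3p). In either pair both motifs can overlap in an 8-base match. Of the 10 genes, Il1r1 held a match to miR-139-5p, at 2 places, and the other 9, Il1rn with a 3′ UTR of 1864 bases among them, held none. The 3′ UTR searched had 3864 bases for Il1r1 but only 24 for Il1r2 and 88 for Casp1, which left little room for a match. Among the other IL-1 family genes searched, the cytokine gene Il33 held 1 match and Il18r1, which encodes the binding chain of the IL-18 receptor, held 2. None of these genes held a match to miR-139-3p. The sites are printed with the match in capitals, and all lie on the plus strand of GRCm38.
Il1r1 chr1:40313961-40313989: attttaaattaACTGTAGAaggaagtcag
Il1r1 chr1:40316395-40316423: tgtaggcaggcCTGTAGAacatttcttta
Il33 chr19:29960538-29960566: gtcacagtcttACTGTAGAggaatgtaaa
Il18r1 chr1:40498999-40499027: tatgattcataACTGTAGccaactcacag
Il18r1 chr1:40499628-40499656: ctagctgctaaACTGTAGcaaacaatcaa
Such matches are common: of 14445 genes with a 3′ UTR and at least 10 counts, 21.59% held one to miR-139-5p and 15.92% one to miR-139-3p. A match is a run of letters and was not tested as a binding site.

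Libraries held between 35133308 and 47089725 counts, and 3 counts equal 0.0637 to 0.0854 CPM (counts scaled to a common library total). Levels are given as CPM normalized by the TMM method, which scales libraries to a common composition. Mir139 itself had 0 counts in all 10 libraries, so these counts give no check of its induction. Kit and Myb, genes of progenitor cells, were at 132 to 172 and 368 to 483 CPM in the 10 libraries, while Cd34, another progenitor marker, had 0 or 1 count in each untreated library. In bulk RNA, fewer cells of a type and less RNA per cell cannot be told apart.

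Il1rn (ENSMUSG00000026981, chromosome 2 from 24336853 to 24351494 of GRCm38, plus strand) was far higher with DOX in all 3 MLL-AF9-i139 clones. The untreated clones 1, 2 and 3 had 205, 137 and 71 Il1rn counts, and the DOX-treated ones 7374, 5109 and 872. In MLL-AF9-ieGFP, Il1rn had 179 and 139 counts without DOX and 209 and 179 with it, at 48 h and 72 h. The lowest DOX-treated MLL-AF9-i139 library, clone 3, thus lay above every one of the 7 other libraries, which ranged from 71 to 209 counts.

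In CPM, the level of Il1rn in MLL-AF9-i139 was 3.04 ± 1.20 without DOX and 102 ± 70.2 with DOX (SD, n = 3 clones). The difference was 5.07 on the log2 scale (standard error 0.72). For DOX in MLL-AF9-i139, this error and those of the other measured genes below come from a fit without the clone. They thus hold the spread between clones, unlike those of the pathway genes further down. In a fit that pairs the libraries of each clone, the error was 0.33 for Il1rn, 0.13 for Il1r2, 0.11 for Casp1 and 0.08 for Il18rap. It was smaller for every measured gene except Il1a, where it was 0.68. Clones 1 and 2 were alike, with a CPM ratio of 36.65 and 41.6, and clone 3 had a smaller one, 12.31. The wide SD with DOX thus came from clone 3, at 22.1 CPM against 154 and 130. In MLL-AF9-ieGFP the level was 3.98 ± 0.08 CPM without DOX and 5.10 ± 0.33 with DOX (SD, n = 2 cultures), a CPM ratio of 1.359 at 48 h and 1.207 at 72 h. The difference of the DOX effect on Il1rn between the constructs was 4.70 on the log2 scale. Counting was per gene, so the secreted and the intracellular forms of the antagonist, which come from different first exons, are summed.

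**Figure D1:**
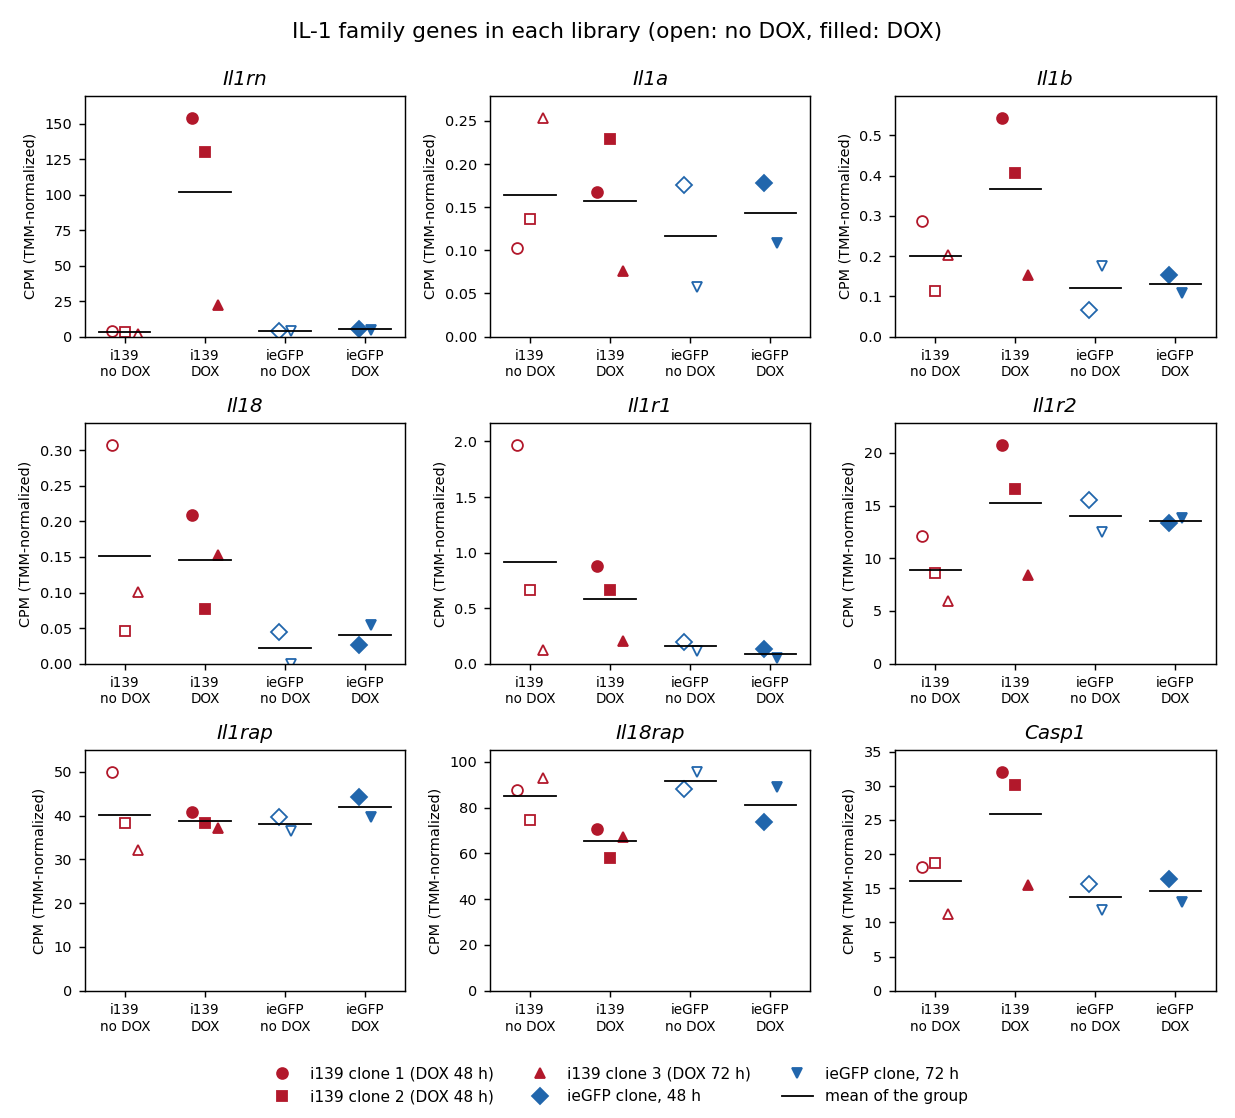
Level of each measured IL-1 family gene in every library, in TMM-normalized CPM on a linear axis from 0, with 1 symbol per clone or culture, open without and filled with DOX, and a line at the group mean. Il1rn stands out in the 3 DOX-treated MLL-AF9-i139 libraries, at 154, 130 and 22.1 CPM, while Il1a, Il1b and Il18 stay under 0.6 CPM in every library.

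The agonist genes Il1a, Il1b and Il18 were at the limit of detection. Il1a (chromosome 2 from 129299610 to 129309972) had 5, 6 and 10 counts in the untreated MLL-AF9-i139 clones 1, 2 and 3, and 8, 9 and 3 with DOX. Its difference with DOX was -0.02 on the log2 scale (standard error 0.56), and the groups overlapped. In MLL-AF9-ieGFP, Il1a had 2 to 8 counts per library.

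Il1b (chromosome 2 from 129364570 to 129371139) had 14, 5 and 8 counts without DOX and 26, 16 and 6 with DOX in the 3 clones. The difference was 0.88 on the log2 scale (standard error 0.54). Clones 1 and 2 had more Il1b with DOX and clone 3 had less, and the groups overlapped.

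Il18 (chromosome 9 from 50554827 to 50581840) had 15, 2 and 4 counts without DOX and 10, 3 and 6 with DOX. Its difference was -0.05 on the log2 scale (standard error 0.71). The untreated clone 1 was the highest library of Il18, and in MLL-AF9-ieGFP the gene had 0 to 2 counts. At such counts a small change of an agonist was not detectable at this depth. For Il1a the counting adds a further limit, since 92.1% of its exon bases lie inside the bodies of other genes, against 27.3% for Il1b, 14.6% for Il18 and 0% for Il1rn, and it is not given how the authors assigned reads of overlapping genes.

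Since the agonists stayed low, the ratio of antagonist to agonist transcripts followed Il1rn. Per kilobase of exon, the CPM of Il1rn divided by the summed CPM of Il1a and Il1b was 3.75, 4.37 and 1.39 in the untreated clones 1, 2 and 3, and 75.3, 71.3 and 33.8 with DOX. The MLL-AF9-ieGFP cultures gave ratios of 5.75 and 6.04 before DOX and of 5.64 and 7.84 with it. All 3 DOX-treated MLL-AF9-i139 libraries lay above the others, but the divisor rests on only 8 to 34 counts per library. The ratio is one of transcripts, and no protein was measured.

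The receptor genes lie side by side on chromosome 1, except Il1rap on chromosome 16, and they did not move together. Il1r1 (chromosome 1 from 40225080 to 40317257), the signalling receptor and the holder of 2 of the miR-139-5p matches printed above, had 96, 29 and 5 counts in the untreated clones 1, 2 and 3. With DOX these clones had 42, 26 and 8 Il1r1 counts. The difference was -0.65 on the log2 scale (standard error 0.82), with -1.12 in clone 1, 0.00 in clone 2 and 0.52 in clone 3. The order of the clones, highest in clone 1 and lowest in clone 3, was the same with and without DOX, and the spread between clones was larger than the difference with DOX.

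Il1r2 (chromosome 1 from 40074079 to 40125231), the decoy receptor, had 592, 379 and 236 counts without DOX and 993, 650 and 332 with DOX in clones 1, 2 and 3. Its level was 8.92 ± 3.08 CPM without DOX and 15.2 ± 6.25 with DOX (SD, n = 3 clones), a difference of 0.79 on the log2 scale (standard error 0.36). Each clone was higher with DOX, by 0.77, 0.93 and 0.49 on the log2 scale, but the groups overlapped, because clone 3 with DOX, at 8.43 CPM, was below the untreated clones 1 and 2. The MLL-AF9-ieGFP clone had 15.5 and 12.5 CPM of Il1r2 without DOX and 13.3 and 13.8 with DOX, so that its untreated level was already within the range of the DOX-treated MLL-AF9-i139 clones. Per kilobase of exon, the level of Il1r2 was 20.6 to 157 times that of Il1r1 in untreated MLL-AF9-i139 and 78.8 to 138 times with DOX, and these ranges overlapped.

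Il1rap (chromosome 16 from 26581704 to 26730117), the accessory chain that the IL-1, IL-33 and IL-36 receptors share, had 2436, 1683 and 1272 counts without DOX and 1951, 1508 and 1462 with DOX. It was at 40.2 ± 8.98 CPM without and 38.7 ± 1.84 CPM with DOX (SD, n = 3 clones), a difference of -0.04 on the log2 scale (standard error 0.16). Clone 1 was lower with DOX, clone 3 higher, and clone 2 the same to the second decimal. Of its exon bases 76.7% lie inside an antisense gene that had 17 counts in all, and whether reads of Il1rap were lost there was not tested, which limits its place by level.

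Il18rap (chromosome 1 from 40515362 to 40551705), the signalling chain of the IL-18 receptor, had 4278, 3276 and 3660 counts without DOX and 3384, 2288 and 2653 with DOX. The level was 85.0 ± 9.33 CPM without and 65.4 ± 6.48 CPM with DOX (SD, n = 3 clones). The difference was -0.37 on the log2 scale (standard error 0.12), with -0.31, -0.36 and -0.46 in clones 1, 2 and 3. It was small, but each of the 3 libraries with DOX was lower than each of those without. In MLL-AF9-ieGFP, Il18rap was likewise lower with DOX in both cultures, by 0.26 at 48 h and 0.10 at 72 h on the log2 scale, with 88.0 and 95.5 CPM without DOX and 73.6 and 89.0 with it.

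Casp1 (chromosome 9 from 5298517 to 5307265), which encodes the protease that matures IL-1β and IL-18, had 884, 821 and 444 counts without DOX and 1532, 1186 and 607 with DOX. Its level was 16.0 ± 4.15 CPM without and 25.9 ± 9.09 CPM with DOX (SD, n = 3 clones), a difference of 0.70 on the log2 scale (standard error 0.30). Each clone was higher with DOX, by 0.82, 0.69 and 0.45 on the log2 scale. Clone 3 was again lowest in both conditions, and with DOX, at 15.4 CPM, it lay below the untreated clones 1 and 2. In MLL-AF9-ieGFP, Casp1 ranged from 11.8 to 16.3 CPM over the 4 libraries.

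Of the 9 measured genes, 1 had all DOX-treated MLL-AF9-i139 clones above all untreated ones (Il1rn), 1 had them below (Il18rap), and 7 overlapped. Among the 19223 genes tested, 12% were above, 12.8% below and 24.9% one or the other. The median log2 difference of the 9 genes was -0.02, against 0.01 over all genes tested. As the genes were chosen with this comparison known, nothing is read from these counts.

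**Figure D2:**
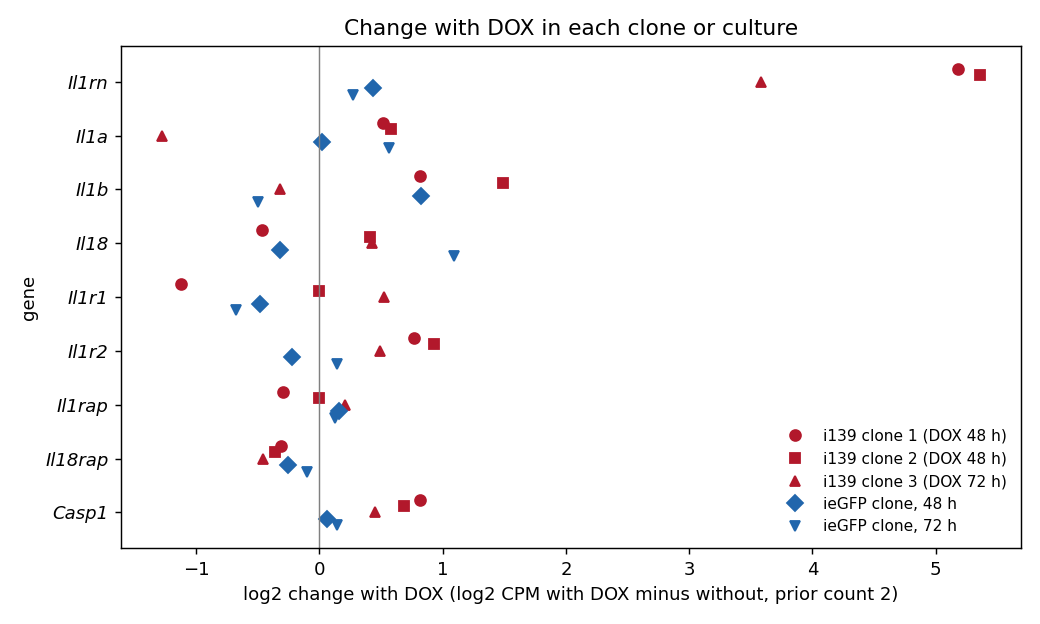
Change with DOX on the log2 scale (horizontal axis, CPM with a prior count of 2) for each measured gene (vertical axis), with 1 symbol per MLL-AF9-i139 clone (red) or MLL-AF9-ieGFP culture (blue). Il1rn lies at 5.18, 5.36 and 3.59 in the clones and at 0.44 and 0.27 in the cultures, Il1r2 and Casp1 lie right of 0 in each clone, and Il18rap lies left of 0 throughout.

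In MLL-AF9-ieGFP, whose libraries the choice of genes did not use, none of the 9 genes passed an adjusted p of 0.05 between DOX and no DOX (edgeR's quasi-likelihood test, Benjamini-Hochberg adjustment over all genes). This held with DESeq2 and with the culture time as a block, and 0 of the 9 had an unadjusted p under 0.05. Of all 20269 genes tested, 0% passed with edgeR, 1.28% had an unadjusted p under 0.05, and 0.00493% passed with DESeq2. The largest differences were in genes of few counts, -0.78 on the log2 scale for Il1r1 (standard error 1.37) and 0.62 for Il18 (standard error 1.48). For Il1rn the log2 difference was 0.36 with a standard error of 0.70 (adjusted p = 1, edgeR), and the gene was higher with DOX in 2 of 2 cultures. This error draws on the spread of all 10 libraries, those of the MLL-AF9-i139 clones among them. By CPM, both cultures with DOX, at 5.33 and 4.87, lay above both without it, at 3.92 and 4.03. The difference in Il1rn is smaller than this error. With 2 cultures of 1 clone, the test does not show that DOX left Il1rn unmoved.

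Before induction the constructs also gave no call among the 9 genes. Between untreated MLL-AF9-i139 and untreated MLL-AF9-ieGFP, 0 of the 9 passed with edgeR and 0 with DESeq2, where 0.0444% and 0.217% of 20269 genes did. By unadjusted p under 0.05 there were 2 of the 9 with edgeR, Il1r1 and Il18, and 1 with DESeq2 (Il18 reached 10 counts through MLL-AF9-i139 alone, so its p is not a test), where 2.48% and 1.74% of all genes did. Il1r1 was higher in MLL-AF9-i139 by a log2 difference of 2.52 with a standard error of 0.99 (adjusted p = 1, edgeR), on 96, 29 and 5 counts against 9 and 4. Il18 differed by 2.52 as well, with a standard error of 1.10 (adjusted p = 1, edgeR), on 15, 2 and 4 counts against 2 and 0. In both, untreated clone 1 was the highest library, and for Il1r1 clone 3 fell between both MLL-AF9-ieGFP cultures. Il1rn differed by -0.38 on the log2 scale (standard error 0.64). This comparison and the 2 DOX comparisons share untreated libraries.

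Levels between genes were compared per kilobase of exon over the 5 untreated libraries. The IL-18 receptor chain Il18rap was highest, with a median of 13.0 CPM per kilobase and a range of 11.1 to 14.2. Casp1 followed at 10.4, Il1r2 at 6.36 and Il1rap at 3.38 CPM per kilobase, each overlapping its neighbour. Il1rn came next at 0.709 (range 0.325 to 0.759) and overlapped neither Il1rap above it nor Il1b below it. Il1b at 0.0913, Il1a at 0.0693, Il18 at 0.0442 and Il1r1 at 0.0310 CPM per kilobase overlapped one another. Untreated cells thus held transcripts of both accessory chains, the decoy and the protease well above those of the agonists and of Il1r1.

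With DOX, Il1rn took another place in this order in MLL-AF9-i139. Per kilobase it was at 27.8, 23.5 and 4.002 CPM in clones 1, 2 and 3, next to 10.5, 8.62 and 9.98 for Il18rap and 21.4, 20.2 and 10.3 for Casp1. Il1rn was thus the highest of the 9 genes in clones 1 and 2. In clone 3 it stayed below Il18rap, Casp1 and Il1r2 (4.42 CPM per kilobase) and above Il1rap (3.27), whose level has the limit given above.

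**Figure D3:**
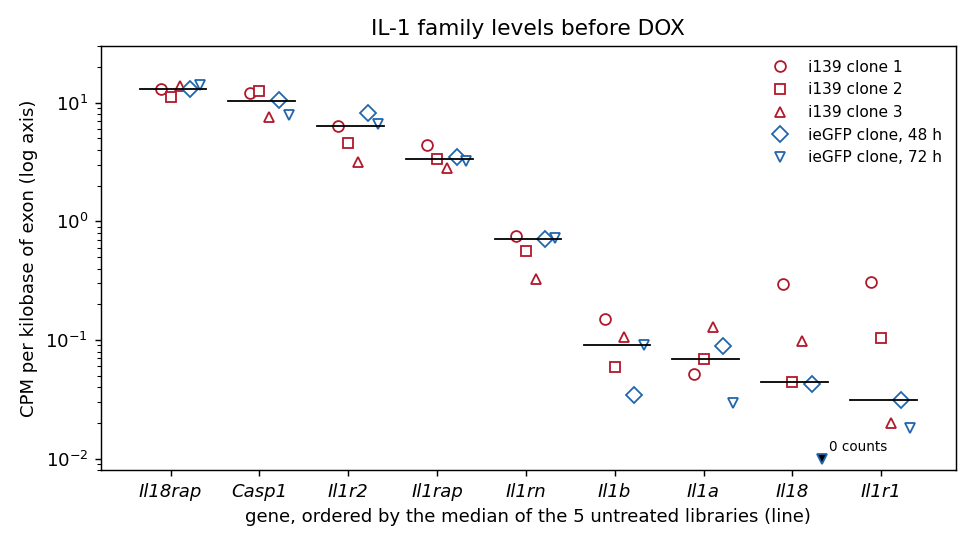
Level of each measured gene in CPM per kilobase of exon (log axis) in the 5 untreated libraries, ordered by the median (line), with 1 symbol per library and a filled symbol at the lower edge for the 1 library with 0 counts of Il18. Il18rap, Casp1, Il1r2 and Il1rap lie above 1, Il1rn between 0.325 and 0.759, and the agonists and Il1r1 mostly under 0.2.

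Around these genes, 4 lists of the IL-1 pathway held 67 genes of the table, of which 57 had enough counts to be tested in MLL-AF9-i139. The lists, too, were chosen with earlier results of these data known. Their shares of calls, here and in the comparison of the constructs below, are thus a description and no independent support. Without the clone in the model, 0 of the 57 passed with edgeR (0.0624% of all 19223 genes did), and 22 had an unadjusted p under 0.05 (20.6% of all genes). The clone numbers pair the libraries, and with the clone as a block 19 of these 57 passed, or 33.3%, 17 higher and 2 lower with DOX, where 12.4% of all genes passed, 7.05% higher and 5.33% lower. With DESeq2, 12 of the 57 passed, against 8.09% of all genes. Leaving out clone 3 gave 23 calls with no block, and leaving out clone 1 or clone 2 gave 0. The share of all genes called in these runs is not given, so nothing about the lists is read from these counts. The median log2 difference of the 57 genes was 0.35, against 0.01 for all genes tested. These 19 genes had an adjusted p between 0.0173 and 0.0443 with the block (edgeR), and over all settings their adjusted p ranged from 2.8e-05 to 0.902. One of them, Nlrp1b, reached 10 counts through the DOX-treated libraries alone, so that it had to differ, and without it 16 of 56 were higher and 2 lower.

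Of the genes that IL-1 induces through NF-κB, 15 were tested and 6 rose and 1 fell with the clone as a block. This was 46.7% of the list, where 12.4% of all genes passed. Lcn2, which encodes the iron-scavenging lipocalin 2, had 412, 279 and 228 counts without DOX and 1629, 1040 and 453 with DOX in clones 1, 2 and 3, a log2 rise of 1.72 ± 0.22 (± standard error, as for the other pathway genes). The chemokine gene Ccl4 rose by 2.33 ± 0.45, on only 6, 7 and 7 against 54, 36 and 13 counts. Zc3h12a, an RNase that degrades cytokine mRNAs and which the study also names in these libraries, rose by 1.13 on the log2 scale. The NF-κB inhibitors Tnfaip3 and Nfkbia rose by 0.77 and 0.67, and Birc3, an inhibitor of apoptosis, by 0.65. Sod2, the mitochondrial superoxide dismutase, fell by 0.62 on the log2 scale, with 95.1, 108 and 106 CPM without DOX and 56.0, 55.7 and 94.4 with it. Among the other cytokines and chemokines of this list, Tnf had 246 to 493 counts per library. Ccl3 had 15, 14 and 58 counts without DOX and 309, 204 and 28 with DOX in clones 1, 2 and 3. Neither Tnf nor Ccl3 passed. Il6 had 0 to 4 counts per library, Csf2 0 to 2, and Cxcl1 and Ccl2 0 in all libraries. Ccl2 lies wholly inside other gene bodies, and its 0 is not read as absence.

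Of 17 inflammasome and release genes tested, 7 rose and 0 fell with the clone as a block, or 6 of 16 without Nlrp1b. These were 41.2% and 37.5%, where 12.4% of all genes passed. The sensor gene Nlrp1a had 75, 52 and 44 counts without DOX and 548, 199 and 100 with DOX, a log2 rise of 2.14 ± 0.32. Its neighbour Nlrp1b had 1 count in each untreated clone and 49, 10 and 4 with DOX, and no fold is given on so few. Naip5, Naip6 and Naip2, sensors of bacterial proteins, rose by 1.05, 0.55 and 0.40. Nlrp1 genes resemble each other, as do Naip genes, so reads may have been split or shared between them. Gsdmd, which encodes the pore protein gasdermin D, rose by 0.67, from 25.5, 27.8 and 27.1 to 44.8, 48.3 and 35.1 CPM, and Casp4, the murine caspase-11 that cleaves it, by 0.63. Nlrp3 and the adaptor gene Pycard did not pass.

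Of 17 receptor signalling genes tested, 3 rose and 0 fell with the clone as a block. At 17.6% this was near the 12.4% of all genes that passed, so nothing about this list is read from the count. Irak2, a kinase of the receptor complex, had a log2 rise of 0.86 ± 0.15, from 31.2, 29.2 and 36.1 to 61.7, 64.7 and 47.4 CPM in clones 1, 2 and 3. Irak1 rose by 0.39 and Peli2, a ubiquitin ligase that modifies IRAK proteins, by 0.56. Myd88 had 0 counts in all libraries, and all of its exon bases lie inside the bodies of other genes. Whether this accounts for the 0 was not tested, and it is not read as absence.

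Of 8 other IL-1 family genes tested, 1 rose and 1 fell with the clone as a block. Of all genes 7.05% rose and 5.33% fell, and with so few genes nothing about this list is read from the count. Il1f9, the gene of IL-36γ, had a log2 rise of 0.76 ± 0.15, from 13.7, 7.02 and 1.88 to 18.1, 13.4 and 3.71 CPM. The spread between clones was much larger than this change, and both MLL-AF9-ieGFP cultures were higher with DOX as well, by 0.98 and 1.07. Il33, the gene of the alarmin IL-33 and the holder of an 8-base match to miR-139-5p, fell by 1.48 ± 0.34 on the log2 scale. It had 104, 83 and 83 counts without DOX and 22, 19 and 57 with DOX in the clones, while the MLL-AF9-ieGFP cultures had 84 and 81 Il33 counts without DOX and 50 and 68 with it. Il18r1, with its 2 matches, had 88, 85 and 51 counts without DOX and 101, 75 and 56 with DOX, a difference of 0.13 that did not pass. Peli2, Tnfaip3 and Birc3, which rose, each hold 1 match to miR-139-5p as well. Tollip, Traf6, Map3k7, Peli3, Ube2n and Ikbkg, with 1 match each, and Peli1 and Gsdme, with 2 each, did not pass. A link of matches with these changes was not tested. The gene of the IL-18 binding protein, Il18bp, and Sigirr, a negative regulator of these receptors, were higher in the 3 DOX-treated clones than in any untreated one, by 0.36 and 0.31 on the log2 scale, and did not pass.

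**Figure D4:**
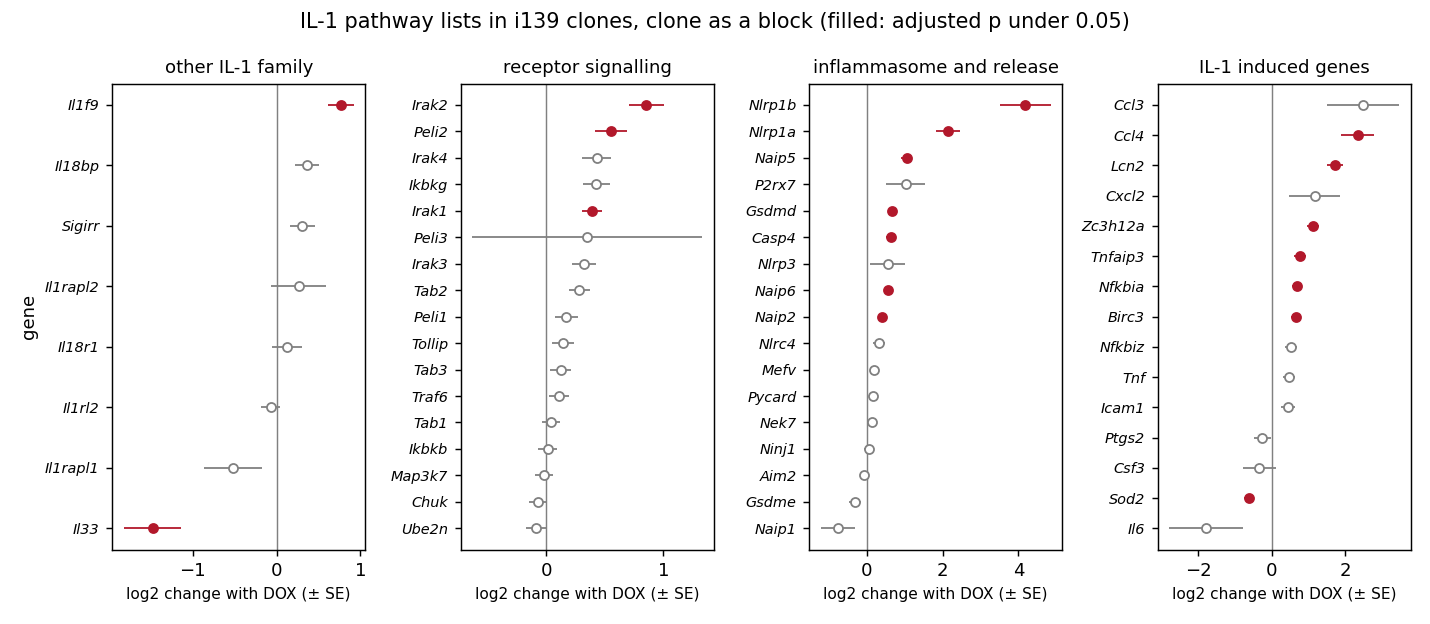
Log2 change with DOX in MLL-AF9-i139 with the clone as a block (horizontal axes, ± standard error) for the tested genes of the 4 pathway lists (vertical axes), filled red where the adjusted p was under 0.05. Of 57 genes 17 are filled right of 0 and 2 left of 0, and the point of Nlrp1b rests on 1 count per untreated library, so that it had to lie right of 0.

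The DOX effect in MLL-AF9-i139 was also set against that in MLL-AF9-ieGFP for the pathway lists. In this interaction 0 of 58 genes passed with edgeR, with 12 at an unadjusted p under 0.05 (9.17% of all genes), and 1 passed with DESeq2 and 1 with the block, where 0.00493%, 0.409% and 0.187% of 20269 genes did. Both of these calls were Lcn2. Without clone 3 there were 17 calls, and the share of all genes called in that run is not given. The median log2 difference of the 58 genes was 0.26, against -0.01 for all genes tested.

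Markers of several myeloid cell types moved in the same libraries. Of 28 marker genes tested, 6 rose and 1 fell with DOX in MLL-AF9-i139 once the clone was a block, where 7.05% and 5.33% of all genes did, and 0 passed without the block. One of the 6, Cd34, had 0, 1 and 0 counts in the untreated clones and 20, 8 and 3 with DOX, and reached 10 counts through the DOX-treated libraries alone, which leaves 5 of 27 higher. Summed progenitor markers, mostly Mpo and Myb, went from a range of 1001 to 1214 CPM without DOX to one of 1752 to 2317 with it. Mpo rose by 1.41 on the log2 scale with the block. Kit at 0.02, Myb at -0.1 and Flt3 at 0.458 did not pass. In MLL-AF9-ieGFP the progenitor sum was also higher with DOX, at 1276 to 1537 CPM against 1049 to 1197. Summed neutrophil markers ranged from 130 to 223 CPM without and from 193 to 361 with DOX, and 2 of 8 tested rose, Ngp by 1.35 and Cxcr2 by 4.02 on the log2 scale. Ltf at 0.521, Camp at 0.41, Ly6g at 0.264, S100a8 at 0.239, S100a9 at -0.011 and Mmp8 at -0.724 did not pass. In untreated MLL-AF9-ieGFP the neutrophil sum was 296 to 378 CPM, most of it S100a8, S100a9 and Ngp. Cxcr2 was at 41.6, 22.8 and 2.67 CPM in the DOX-treated clones 1, 2 and 3, and between 0.889 and 1.40 CPM in the other 7 libraries, so that it was highest in the same libraries as Il1rn. Summed monocyte or macrophage markers, nearly all Ly6c2, ranged from 352 to 440 CPM without and from 277 to 426 with DOX. Of 7 tested, 1 rose (Csf1r, with a log2 difference of 1.26) and 1 fell (Ccr2, with -1.50). Ly6c2, at -0.32, was lower and did not pass. With the block, 5 of the 7 had a log2 difference above 0, and the median was 0.94. Adgre1 at 1.38, Fcgr1 at 1.33 and Cd14 at 0.94 did not pass. Mast cell or basophil markers ranged from 11.4 to 15.1 and from 16.5 to 19.1 CPM, with Fcer1a and Prss34 at 0. Mcpt8 was higher, with a log2 difference of 0.708 with the block. Ms4a2 went the other way, at -0.765, and did not pass, nor did Gata2 at 0.283 and Cpa3 at 0.086. Lymphoid markers summed to at most 0.480 CPM in any library, and erythroid ones to at most 2.43, with Hbb-bs and Hbb-bt at 0. The part of these markers in the changes of Il1rn and the IL-1 pathway was not tested.

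Among 9659 genes compared by Pearson's r of log2 CPM over the 10 libraries, Jak1 (r = 0.9947), Slc29a3 (0.9908), Uba7 (0.9907) and Wdfy4 (0.9895) had the pattern most like that of Il1rn. All of these r values rest on the contrast of 3 DOX-treated MLL-AF9-i139 libraries with the other 7, and they are given with no p. The likeness is one of shape and not of size. Jak1, a kinase of cytokine receptors, was higher with DOX by 0.53, 0.54 and 0.30 on the log2 scale in clones 1, 2 and 3, and Slc29a3, a nucleoside transporter of lysosomes, by 2.10, 1.93 and 1.26. Uba7, the activating enzyme for ISG15, was higher by 1.92, 1.84 and 1.32, and Wdfy4 by 1.89, 1.94 and 0.96. In each of these 4 genes, as in Il1rn, clone 3 had the smallest difference, and the MLL-AF9-ieGFP cultures lay between 0.00 and 0.37. A choice by likeness to Il1rn favours this pattern, so it is no separate result.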

How the data were processed

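Total RNA depleted of ribosomal RNA was sequenced in 10 libraries. According to the methods and processing notes, the authors mapped reads to GRCm38 with STAR 2.5.3e, counted them per gene with featureCounts 1.6.0 on GENCODE vM15 and deposited raw counts, with no normalization. The 2 deposited count tables held the same values for these libraries, and 14 columns of other samples were not used. Settings for strand and overlapping genes are not given in the sources used here.

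Gene positions, lengths and 3′ UTRs came from GENCODE M21 on GRCm38, and 52403 of 52550 identifiers matched a symbol. Genes with at least 10 counts in total were fitted with edgeR 4.0.16 (R 4.3.3, limma 3.58.1), with TMM normalization, the quasi-likelihood test, two-sided, and Benjamini-Hochberg adjustment over all genes at 0.05. DOX in MLL-AF9-i139 was fitted on its 6 libraries, and the other comparisons on all 10 in 4 groups. Log2 fold changes of single clones used a prior count of 2. DESeq2 1.42.0, RLE size factors, 2 other filters, the clone as a block, all 10 libraries in 1 fit and leaving out libraries were alternatives. The clone number marks the same clone, and libraries of a clone deviated together (Pearson's r of 0.381, 0.288 and 0.414 over genes, against -0.315 to -0.044 between clones). Group means were subtracted first, so positive values within clones draw those between clones below 0. The values between clones are thus no separate support for the pairing. In MLL-AF9-ieGFP the replicates are cultures of 1 clone. The fits on all 10 libraries share 1 estimate of the spread over the 4 groups. Their p-values thus do not measure a spread between MLL-AF9-ieGFP clones. The genes and lists were chosen with earlier results of these data known. By rule, the text names all 10 genes, from each list at most 5 genes per direction that passed with the block, the 5 genes most like Il1rn and the cell type markers, of which some are not reported here. Birc3, Naip6, Naip2 and the pathway genes that did not pass were named after their values were seen. Scripts were tested on simulated data. Python 3.11.15, numpy 2.4.6, pandas 2.3.3, scipy 1.17.1 and matplotlib 3.10.9 were used. Depth was 35133308 to 47089725 counts per library.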

Additional observations from a re-analysis of the deposited data

Results flagged for a closer look

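For 6 of the 57 genes of the pathway lists tested in MLL-AF9-i139, every clone was higher with DOX while both MLL-AF9-ieGFP cultures were lower. The share of all genes with this pattern was not computed, so nothing about the lists is read from this count. For Nlrp1a the effects differed by 2.51 on the log2 scale, with 2.86, 2.05 and 1.15 in clones 1, 2 and 3 and -0.09 and -0.37 in the cultures. For Ccl4 they differed by 3.18, with 2.78, 2.21 and 0.75 in the clones and -0.48 and -0.78 in the cultures, which had 3 to 9 counts per library. For Lcn2 they differed by 1.92, with 2.00, 2.05 and 0.99 in the clones and -0.08 and -0.15 in the cultures. The differences were smaller for Birc3, at 0.75, for Tnf, at 0.74, and for Tab2, at 0.33, whose decrease at 48 h was under 0.01. The interaction had an adjusted p of 0.527 or 0.532 for each of the 6 (edgeR), so none of these differences passed. Lcn2 passed in 4 of 11 settings (adjusted p from 0.000454 to 0.949, edgeR or DESeq2), Nlrp1a in 1 of 11 (0.0205 to 0.949), Birc3 in 1 of 11 (0.00262 to 0.949), Tab2 in 1 of 11 (0.0469 to 0.949), Ccl4 in 1 of 10 (0.00696 to 0.949) and Tnf in 0 of 11 (0.0517 to 0.949). Groups of 2 or 3 libraries are too small for a check of single outlying samples.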

How the results depend on the processing

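The number of IL-1 pathway genes called between DOX and no DOX in MLL-AF9-i139, 0 without the clone in the model, was 9 with no filter beyond 1 count, 12 with DESeq2, 11 with all 10 libraries in 1 fit and 19 with the replicate block, which pairs the libraries of a clone. Leaving out 1 clone gave 0 to 23 calls, the 23 without clone 3. In the interaction with the construct, 0 calls became 1 with no filter beyond 1 count, 1 with DESeq2 and 1 with the replicate block, and 0 to 17 when 1 replicate was left out, the 17 without clone 3. RLE size factors and a filter of 10 counts in 3 libraries left both counts at 0. The share of all genes called is not given for the runs with another filter, with all 10 libraries in 1 fit or with a replicate left out. The counts of those runs thus show how the calls depend on the setting and nothing about the lists. For the 9 IL-1 family genes, MLL-AF9-ieGFP and the untreated comparison gave 0 calls in each alternative run, the replicate block included for MLL-AF9-ieGFP. The log2 change of 8 of the 9 genes in MLL-AF9-i139 stayed within 1 SD of the clones in each alternative, and that of Il18 moved to 0.64 without clone 1. The sign held in each alternative for 5 of the 9, and Il1rn lay between 4.86 and 5.29. The cause of these differences was not tested. Where 1 replicate of MLL-AF9-ieGFP was left out, the lone library was assumed to vary like the other groups. Depth limits the agonists, with 0 to 26 counts per library, and Il1r1, with 2 to 96.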
